A study of Mus musculus with 8 samples.

Results

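In RNA of the quadriceps femoris (QF), a large thigh muscle, 9 genes typical of adipocytes varied widely between mice of one group, and for 8 of them this spread was larger than the log2 fold change between the Grpel1 knockout and control groups (for 7 without 1 control library that stood apart). The genes are Adipoq, Cfd, Retn, Lep, Plin1, Cidec, Fabp4, Pck1 and Scd1, 9 of the 14012 genes of the count table. They were picked because their counts were already known to vary between these libraries, so their levels, spread and differences are given as a description, and any count of calls among them is no evidence. The QF came from 4 Grpel1skm-/- mice and from 4 Grpel1 flox/flox control mice, and each mouse gave 1 library. GRPEL1 is a co-chaperone of the mitochondrial HSP70 that pulls proteins into the matrix. Both groups carry the floxed Grpel1 gene. In the knockout it is removed by Cre-ERT2, a tamoxifen-dependent recombinase made under the human skeletal muscle actin promoter (HSA-Cre), with tamoxifen given to young mice. The promoter is active in muscle fibres, so adipocytes in the muscle are not a target of the deletion by design. The labels give neither age nor sex, list no treatment for either group, and do not say whether the controls of these libraries had tamoxifen. The paper lists male mice, and Y-linked Ddx3y had 81.9 to 101.8 CPM across the controls and 85.2 to 106.7 CPM across the knockouts. The paper calls flox/flox littermates untreated, but its weight curves also include floxed mice with tamoxifen and without Cre. Effects of tamoxifen, Cre and the deletion therefore cannot be told apart. The labels name a separate animal for each library, and p-values here measure the spread between these animals.

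White adipocytes store triglyceride in a single large lipid droplet and secrete hormones. Adipoq encodes adiponectin, Lep leptin, Retn resistin and Cfd adipsin (complement factor D), which are all secreted. Plin1 and Cidec encode perilipin 1, which guards the droplet surface against lipases, and CIDEC, which fuses droplets. Fabp4 encodes a fatty acid carrier that capillary endothelium also makes. Pck1 encodes the cytosolic phosphoenolpyruvate carboxykinase, which supplies glycerol 3-phosphate for triglyceride synthesis in fat and glucose synthesis in liver. Scd1 encodes stearoyl-CoA desaturase 1, which makes monounsaturated fatty acids. Fat is found between and around muscles, and a piece of dissected QF can hold varying amounts of it.

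One library stood apart before any comparison of groups. In control replicate 3, 118 of the 12464 genes with a mean of at least 1 CPM (counts per 1000000 counts, on library sizes scaled by the TMM method) were 4-fold or more below each of the other 3 controls, against 21 to 32 genes in the other control libraries and 2 to 19 in the knockout libraries. These 118 genes, 0.947% of those examined, held 7 of the 9 adipocyte genes, 15 of 22 further adipocyte genes from a separate list and 6 of 14 genes of fatty acid and triglyceride synthesis. Fold changes and the spread of the 9 genes are therefore also given without it. Library totals ran from 16017565 to 20361144 counts, and 3 counts, the most that a count of 0 allows at 95% for counting error alone, corresponded to 0.119 to 0.242 CPM. Grpel1 itself had 64.1 to 71.2 CPM across the controls and 59.9 to 71.9 CPM across the knockouts, so the count of the whole gene does not check the labels, and the groups are called by their labels.

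The adipokine genes showed the pattern clearly. Adipoq (Entrez Gene 11450, chr16:23146536-23157968, + strand, GRCm38) had 91.7, 59.0, 3.58 and 83.3 CPM in control replicates 1 to 4 and 149.9, 85.8, 32.1 and 90.0 CPM in knockout replicates 1 to 4. Control replicate 3 was 16.5-fold below the next control, knockout replicate 3 was the lowest knockout, and the groups overlapped. The raw counts behind these levels were 50 in control replicate 3 and 902 to 1322 in the other controls, so the low value is not one of a few reads. The log2 fold change of Adipoq was 0.59 with a standard error (SE) of 0.70, and 0.20 without control replicate 3. In bulk RNA, fewer adipocytes and less adipocyte RNA per cell cannot be told apart.

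Cfd (chr10:79890853-79892660, + strand) had 589.7, 314, 21.0 and 468 CPM across the controls and 1011, 482, 241 and 512 CPM across the knockouts. The order of the libraries was the same as for Adipoq in each group, and the highest control had 28 times the level of the lowest. Its log2 fold change was 0.69 (SE 0.74), and 0.30 without control replicate 3. Retn (chr8:3655770-3659818, + strand) had 37.7, 22.0, 1.22 and 29.4 CPM across the controls and 109, 71.8, 27.6 and 49.3 CPM across the knockouts. Of the 4 knockouts, 3 lay above every control and knockout replicate 3 lay below 2 of them. The log2 fold change of Retn was 1.52 (SE 0.67), 1.12 (SE 0.41) without control replicate 3, and 1.32 (SE 0.29) without replicate 3 of both groups. Lep (chr6:29060221-29073876, + strand) was the scarcest of the genes. It had 19, 8, 3 and 82 counts across the controls (1.53, 0.524, 0.215 and 5.17 CPM) and 85, 100, 73 and 334 counts across the knockouts (3.54, 4.58, 3.01 and 13.3 CPM). Replicate 4 was the highest in both groups, unlike for the other secreted factors, and control replicate 4 exceeded 3 of the 4 knockouts. The log2 fold change of Lep was 1.68 (SE 0.76), and 1.32 without control replicate 3.

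Both lipid droplet genes were close to Adipoq in their pattern. Plin1 (chr7:79721164-79732776, - strand) had 68.4, 50.5, 1.72 and 86.4 CPM across the controls and 158, 112, 33 and 94.8 CPM across the knockouts. Control replicate 3 was 29.4-fold below the next control. Cidec (chr6:113424634-113435760, - strand) had 101, 60.4, 2.79 and 87.1 CPM across the controls and 159.7, 94.7, 36.5 and 82.6 CPM across the knockouts, so that 2 controls lay above knockout replicates 3 and 4. The log2 fold changes were 0.94 (SE 0.75) for Plin1 and 0.57 (SE 0.73) for Cidec, and 0.54 and 0.17 without control replicate 3.

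The genes of fatty acid handling departed from this order in different ways. Fabp4 (chr3:10204342-10208576, - strand) had 607, 489, 218 and 704 CPM across the controls and 999, 596, 339 and 711 CPM across the knockouts. Replicate 3 was again the lowest of each group, but only 2.24-fold below the next control, and the log2 fold change was 0.39 (SE 0.37) in all libraries and 0.14 without control replicate 3. Pck1 (chr2:173153073-173159254, + strand) had 274, 199.8, 4.94 and 323 CPM across the controls and 362, 62.5, 66.7 and 146 CPM across the knockouts. Its control range was the widest of the 9 genes, 65.5-fold, and knockout replicate 2 rather than 3 was the lowest knockout. The log2 fold change of Pck1 was -0.33 (SE 0.89), -0.74 without control replicate 3, and 0.29 when libraries were scaled by their totals alone, so it has no settled direction. Scd1 (chr19:44394450-44407709, - strand) had 925, 885, 43.0 and 1698 CPM across the controls and 3812, 578, 851 and 3308 CPM across the knockouts. Knockout replicates 1 and 4 lay above every control, while knockout replicates 2 and 3 lay below 3 of the 4 controls, and the log2 fold change was 1.27 (SE 0.88) in all libraries and 0.87 without control replicate 3.

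**Figure D1:**
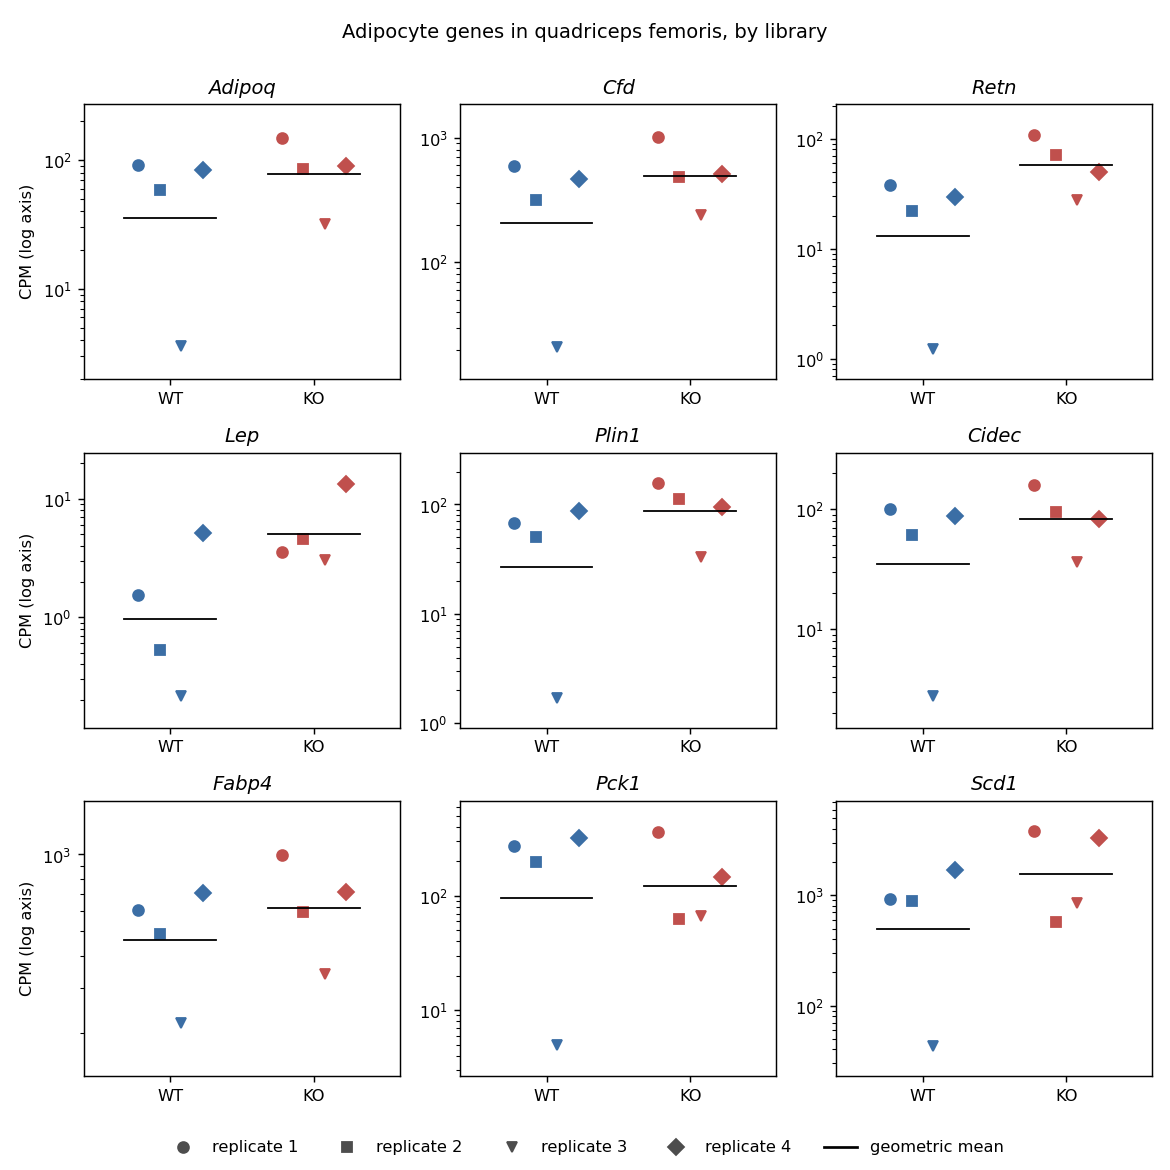
Levels of the 9 adipocyte genes in QF, in CPM on a log axis, for control (WT) and Grpel1skm-/- (KO) libraries. Each point is 1 mouse, its shape gives the replicate number and the line is the geometric mean of 4. Control replicate 3 is the lowest control in 9 of 9 panels, and the groups overlap in each.

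Across the 9 genes, control replicate 3 was the lowest control in 9, where 20.4% of all 14012 genes had this library lowest. Knockout replicate 3 was the lowest knockout in 7, where 28.7% of all genes had it lowest, and knockout replicate 2 was lowest for Pck1 and Scd1. Knockout replicate 1 was the highest knockout for 8 genes, and knockout replicate 4 for Lep. The highest control was replicate 4 for 5 genes and replicate 1 for 4. The mean log2 CPM of the 9 genes was 6.85, 6.21, 2.55 and 7.10 in control replicates 1 to 4 and 7.87, 6.83, 5.98 and 7.35 in knockout replicates 1 to 4. Together the genes took 0.208%, 0.169%, 0.0222% and 0.294% of all counts across the controls and 0.830%, 0.278%, 0.194% and 0.652% across the knockouts. The mean share was 0.173 ± 0.113% across the controls and 0.488 ± 0.303% across the knockouts (SD, n = 4 each), and 2 of 4 knockouts fell within the range of the controls. Scd1 alone supplied 14.5% of the adipocyte gene counts in control replicate 3 and 66.1% in knockout replicate 4. This share also depends on the other RNA of the library, since 8 skeletal myofibre markers made up 16.4 to 18.4% of the counts across the controls and 8.07 to 10.7% across the knockouts. Of these 8 markers edgeR called 6 lower and 1 higher, beside 21.1% and 23.6% of all genes. Myh4, the most abundant, fell by 2.34, Myh1 rose by 1.15 and Myh2 was not called. The summed share therefore follows the levels of these genes and does not by itself give an amount of muscle. How far it sets the higher adipocyte share was not tested.

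The spread within a group was large against the spread of other genes and against the difference between the groups. The median within-group SD of log2 CPM was 1.70 for the 9 genes and 0.16 for the 12464 genes with a mean of at least 1 CPM. Ranked by this SD from the largest, Pck1 was at 7, Plin1 at 12, Scd1 at 13, Cidec at 23, Retn at 39, Adipoq at 40, Cfd at 41, Lep at 63 and Fabp4 at 339. The within-group SD exceeded the absolute log2 fold change in 8 of the 9 genes, with Lep the exception, and in 22.1% of all ranked genes. Without control replicate 3 the median SD of the 9 genes was 0.75, that of all ranked genes stayed at 0.16, and the SD exceeded the absolute log2 fold change in 7 of the 9, with Lep and Retn the exceptions, and in 22.3% of all ranked genes. The SD was then 0.75 for Adipoq, at rank 211, 0.70 for Retn, at rank 283, 1.11 for Scd1, at rank 54, and 1.22 for Lep, at rank 42. The control range without that library was 1.44- to 1.92-fold for 8 genes, and 9.87-fold for Lep. In all 8 libraries the controls were the more uneven group, with SDs of 2.21 for Adipoq, 2.62 for Plin1 and 2.86 for Pck1 on the log2 scale against 0.93, 0.97 and 1.18 across the knockouts. Without control replicate 3 the control SDs of these genes were 0.33, 0.39 and 0.35, below those of the knockouts. The highest to lowest fold across the knockouts lay between 2.95 for Fabp4 and 6.59 for Scd1.

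**Figure D2:**
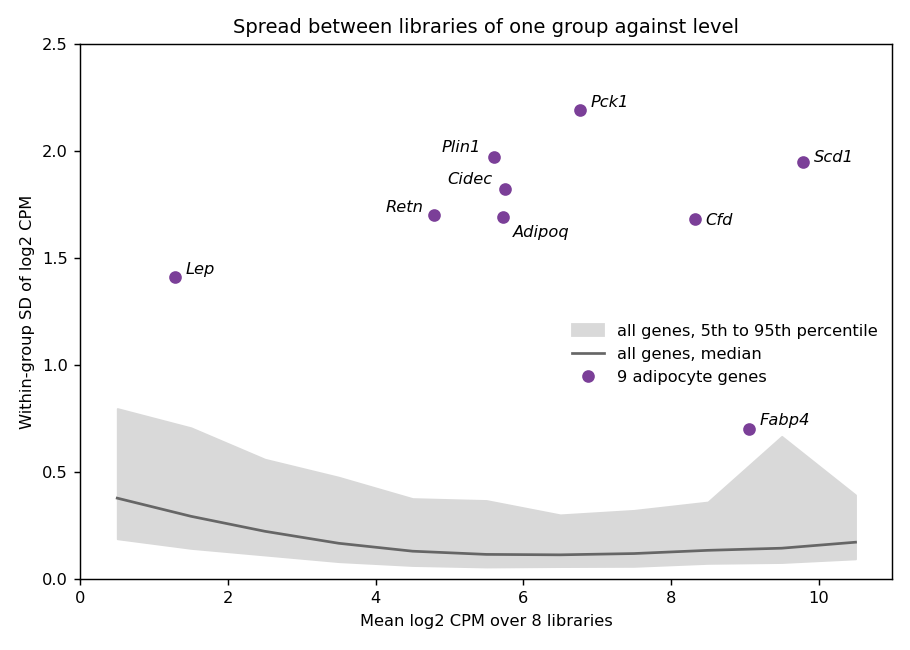
Within-group SD of log2 CPM against mean log2 CPM over 8 libraries. Points are the 9 adipocyte genes, the grey band spans the 5th to 95th percentile of all genes in bins of 1 log2 unit, and the line is their median. The 9 genes, with SDs from 0.70 to 2.19, lie above the band.

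For 8 of these 9 genes the difference between the groups did not exceed that spread, and for Lep it did (1.68 against an SD of 1.41). Without control replicate 3 it also did for Retn (1.12 against an SD of 0.70). Of the 9, 8 had a positive and 1 a negative log2 fold change, with a median of 0.69 beside 0.07 for all 14012 genes. The median was 0.30 without control replicate 3, 0.22 without knockout replicate 1, 1.07 without control replicate 1 and 0.50 without replicate 3 of both groups. With libraries scaled by their totals alone the median of all genes moved from 0.07 to 0.73 and that of the 9 genes to 1.34. At an adjusted p under 0.01 edgeR's quasi-likelihood test called 0 of the 9 (1 had an unadjusted p under 0.05, and DESeq2 called 0), while it called 44.7% of all genes. DESeq2 called 48.0% of all genes, 23.2% higher and 24.8% lower. The CPM of the groups overlapped in all 9, and did not overlap in 53.4% of all genes. Without replicate 3 of both groups 1 of the 9 was called, Retn, and 35.9% of all genes. These counts describe genes that were chosen for their spread and say nothing more about them.

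Per kilobase of exon, the levels kept much the same order in both groups. In the controls they were 786 ± 327 CPM per kb for Fabp4, 376 ± 265 for Cfd, 184 ± 140 for Scd1, 76.6 ± 53.4 for Pck1, 48.2 ± 32.2 for Adipoq, 36.5 ± 25.2 for Cidec, 27 ± 19.0 for Plin1, 17.5 ± 12.1 for Retn and 0.571 ± 0.699 for Lep (SD, n = 4). Only the steps from Fabp4 to Cfd and from Retn to Lep were larger than the larger SD of the pair. In the knockouts they were 1030 ± 426 for Fabp4, 606 ± 349 for Cfd, 442 ± 343 for Scd1, 72.6 ± 39.1 for Adipoq, 60.8 ± 53.6 for Pck1, 54.3 ± 29.5 for Cidec, 51.9 ± 26.9 for Plin1, 50.1 ± 27.1 for Retn and 1.87 ± 1.48 for Lep. Here the steps from Scd1 to Adipoq and from Retn to Lep exceeded the larger SD. Adipoq and Pck1 exchanged places between the groups, and the steps from Adipoq to Retn across the knockouts were smaller than these SDs. The SDs are between libraries in which most of these genes rise and fall together. They do not measure how steady the order is within a library. Retn, for example, had 0.340 to 0.859 counts per Adipoq count over the 8 libraries, so it was lower in each.

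Setting each gene against Adipoq of the same library removed most of the spread for some genes and not for others. The ratio was chosen after seeing the data. There were 6.43, 5.32, 5.88 and 5.61 Cfd counts per Adipoq count in control replicates 1 to 4 and 6.74, 5.62, 7.50 and 5.69 across the knockouts. The Cfd ratio thus varied 1.21-fold among controls whose Cfd level varied 28-fold. For Cidec the ratios were 1.10, 1.02, 0.780 and 1.05 across the controls and 1.06, 1.10, 1.14 and 0.917 across the knockouts. For Plin1 they were 0.746, 0.855, 0.480 and 1.04 across the controls and 1.05, 1.31, 1.03 and 1.05 across the knockouts, with control replicate 4 inside the range of the knockouts.

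Retn was the one gene of the other 8 whose ratio to Adipoq did not overlap between the groups. It had 0.411, 0.373, 0.340 and 0.352 counts per Adipoq count across the controls, a range of 1.21-fold that includes control replicate 3, and 0.728, 0.837, 0.859 and 0.548 across the knockouts. In control replicate 3 the ratio rests on 17 Retn and 50 Adipoq counts, so its value there is imprecise. The mean was 0.369 ± 0.0312 across the controls and 0.743 ± 0.142 across the knockouts (SD, n = 4). Among the 12464 genes with a mean of at least 1 CPM, 0.586% had a higher ratio in every knockout than in any control and 3.08% a lower one. The low Adipoq level of control replicate 3 raises the ratio there for every gene that is not low with it. These shares therefore depend on the choice of Adipoq. Of the 22 further adipocyte genes, the ratio was higher without overlap in 2, Mrap and Nat8l, and lower in 4. Retn was chosen on the same counts, so no test is given.

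The other ratios were uneven. Fabp4 had 6.62, 8.28, 61.0 and 8.45 counts per Adipoq count across the controls and 6.67, 6.94, 10.6 and 7.89 across the knockouts, so that only control replicate 3 stood out, with Fabp4 kept at 218 CPM where Adipoq was at 3.58 CPM. The summed level of 6 endothelial markers was 329.6 CPM in that library and 283 to 398 CPM over the controls, against 196 to 222 CPM across the knockouts, and the part of endothelium in Fabp4 was not tested. The Pck1 ratio was 2.99, 3.38, 1.38 and 3.88 across the controls and 2.41, 0.728, 2.08 and 1.62 across the knockouts. The Scd1 ratio was 10.1, 15, 12.0 and 20.4 across the controls and 25.4, 6.74, 26.5 and 36.7 across the knockouts, where 3 of 4 lay above every control and knockout replicate 2 lay below them all. For Lep, with 3 counts in control replicate 3, the ratios ran from 0.00887 to 0.0620 across the controls and from 0.0236 to 0.147 across the knockouts.

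**Figure D3:**
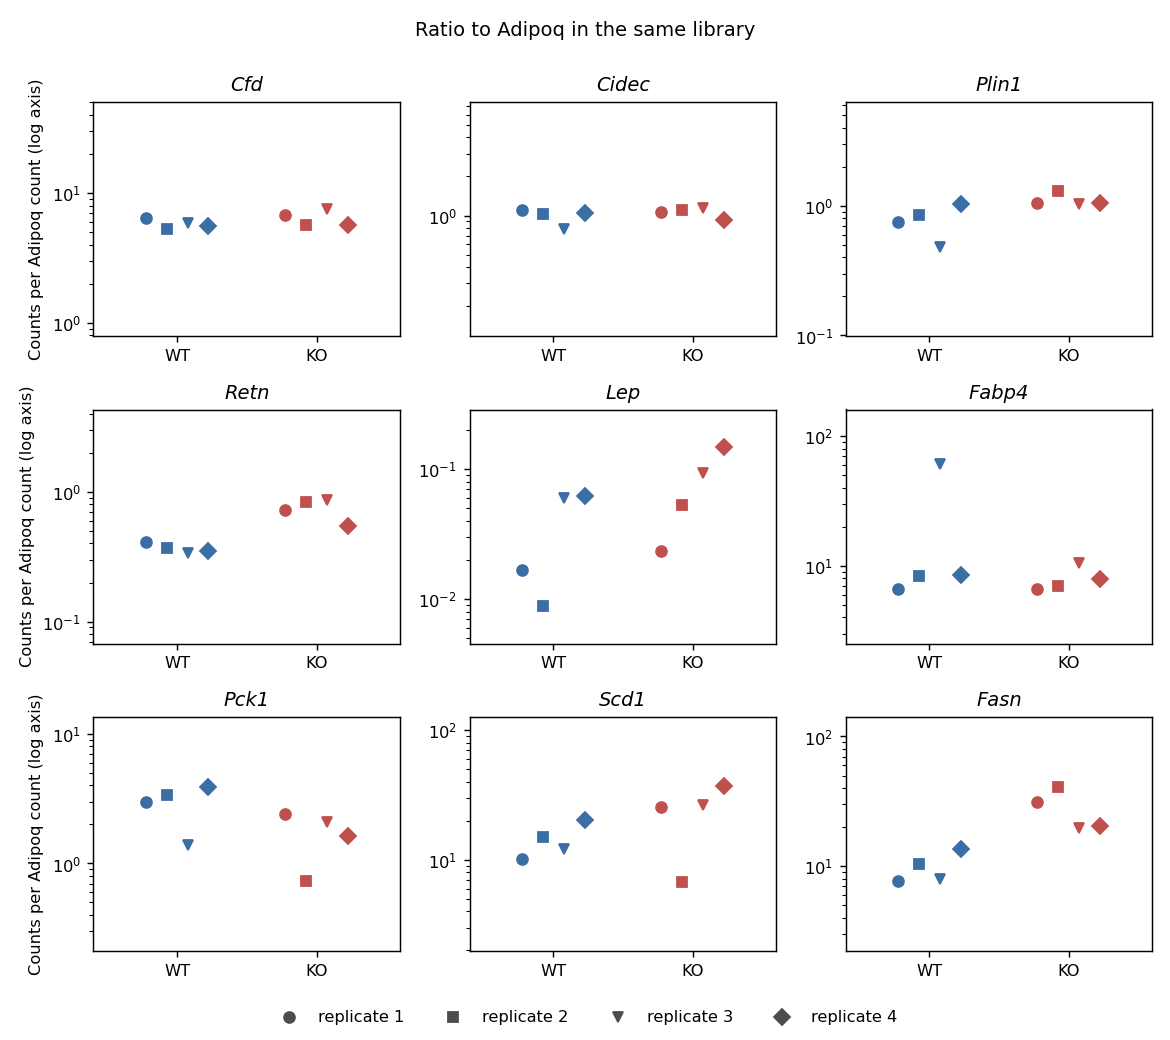
Counts of 8 adipocyte genes and of Fasn per Adipoq count in the same library, on log axes, for control (WT) and Grpel1skm-/- (KO) libraries, with 1 point per mouse. The Cfd and Cidec ratios are nearly level, the Retn and Fasn ratios are higher in the 4 knockouts than in the 4 controls, and the Fabp4 ratio of control replicate 3 is 61.0.

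The promoters of 4 of these genes are printed to show what lies before their start. Adipoq is the reference of the ratios above, Retn the gene whose ratio differed, and Plin1 and Lep, the latter the least like the others in its pattern, hold a match to TTGCNNAA, the letters of a C/EBP motif. C/EBP factors drive adipocyte differentiation together with PPAR gamma. The RefSeq promoter table (GRCm38.p6) matched 7 of the 9 genes, namely Adipoq, Cfd, Retn, Lep, Plin1, Cidec and Pck1, and not Fabp4 and Scd1. Each line gives the 250 bases before the annotated start, 5′ to 3′ on the strand of the gene, with matches to TTGCNNAA on either strand in capitals. They are Adipoq at chr16:23146286-23146535 (+ strand), Retn at chr8:3655520-3655769 (+ strand), Plin1 at chr7:79732777-79733026 (- strand) and Lep at chr6:29059971-29060220 (+ strand).
Adipoq: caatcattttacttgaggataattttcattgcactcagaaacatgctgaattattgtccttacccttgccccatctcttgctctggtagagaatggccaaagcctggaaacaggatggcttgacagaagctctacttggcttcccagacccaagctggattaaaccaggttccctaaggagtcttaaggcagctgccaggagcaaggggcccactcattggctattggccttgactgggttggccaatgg
Retn: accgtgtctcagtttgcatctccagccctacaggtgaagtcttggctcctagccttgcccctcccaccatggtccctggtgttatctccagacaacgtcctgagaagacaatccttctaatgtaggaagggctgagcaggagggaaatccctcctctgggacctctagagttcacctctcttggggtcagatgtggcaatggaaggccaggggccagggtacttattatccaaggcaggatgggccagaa
Plin1: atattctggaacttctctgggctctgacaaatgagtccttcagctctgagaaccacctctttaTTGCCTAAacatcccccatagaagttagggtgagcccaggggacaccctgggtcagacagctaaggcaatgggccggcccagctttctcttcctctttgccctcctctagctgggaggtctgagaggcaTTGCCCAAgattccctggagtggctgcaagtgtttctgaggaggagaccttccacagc
Lep: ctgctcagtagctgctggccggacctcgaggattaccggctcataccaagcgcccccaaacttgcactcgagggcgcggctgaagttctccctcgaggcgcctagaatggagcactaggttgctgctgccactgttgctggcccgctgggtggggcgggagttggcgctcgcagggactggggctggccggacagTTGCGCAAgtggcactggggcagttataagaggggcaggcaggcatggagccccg
Plin1 held 2 matches, which begin 187 and 58 bases before the start, and Lep 1 match, which begins 55 bases before it and reads the same on both strands. The second of 2 annotated Cidec promoters held 1 match. TTGCNNAA was found in 3 of the 7 genes and in 7.54% of 13606 promoters of genes of the table. Here and below a gene counts if any of its promoters matches, while the background counts single promoters of 10673 genes. The shares are therefore not of the same unit. AGGTCA, a site of nuclear receptors, was in 0 of the 7 genes and 11.1% of promoters, and a pair of such sites spaced by 1 base (AGGTCANAGGTCA), the element bound by PPAR gamma, in 0 of the 7 and 0.0367%, each counted on both strands. The TATA box letters TATAAA were in 0 of the 7 and in 6.80% of promoters. Each match of AGGTCANAGGTCA also counts as a match of AGGTCA.

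Genes most like the 9 were sought over the 8 libraries by the root mean square (RMS) difference between a gene's log2 CPM, centred in each group, and the mean of the 9 genes centred in the same way. The 10 nearest of 12464 genes were Lgals12, Acp5, Cd1d1, Slc36a2, Tmem45b, Tmem179, Adrb3, Arxes2, Hcar1 and Hcar2, with RMS differences from 0.14 to 0.26, where a gene with no variation would be at 1.39 and the median gene was at 1.41. Lgals12, which encodes galectin-12, a lectin of the lipid droplet, was nearest. It had 16.9, 8.84, 0.644 and 13.9 CPM across the controls and 31.4, 16.1, 8.88 and 20.9 CPM across the knockouts. Adrb3, the beta 3 adrenergic receptor through which noradrenaline starts lipolysis, had 22.7, 16.4, 0.644 and 27.7 CPM across the controls and 21.8, 11.3, 4.79 and 12.6 CPM across the knockouts. Hcar1 and Hcar2 encode receptors that restrain lipolysis, Slc36a2 an amino acid transporter, Arxes2 a protein raised in adipocyte differentiation, and Cd1d1 a presenter of lipid antigens. Of these 10 genes 4 were already in the list of further adipocyte genes, and 0 were called between the groups by edgeR (44.7% of all genes), a count that choosing genes with a large spread within the groups largely fixes. Within the 9 genes themselves, the RMS difference to the mean of the other 8 was 0.23 for Adipoq and Cfd, 0.34 for Cidec, 0.36 for Retn, 0.45 for Plin1, 0.66 for Scd1, 0.68 for Pck1, 0.95 for Fabp4 and 1.10 for Lep.

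The 22 measured genes of a list of further adipocyte genes, which share the libraries with the 9 and so are no independent evidence, had the same low library. Control replicate 3 was the lowest control in 21 and knockout replicate 3 the lowest knockout in 18. Between the groups 1 of 22 rose and 1 fell, where 23.6% of all genes were called higher and 21.1% lower. The median log2 fold change of the 22 was 0.61. The gene that rose was Adig, which encodes adipogenin (1.66, SE 0.43, adjusted p = 0.0076 by edgeR). It had 8.40, 6.94, 1.72 and 10.2 CPM across the controls and 33.8, 18.4, 12.9 and 21.4 CPM across the knockouts, without overlap. With any one of control replicates 1 and 2 and knockout replicates 1, 2 and 4 left out, the adjusted p of Adig exceeded 0.01, at most 0.024. The gene that fell was Plin4, a perilipin that muscle also makes (-0.88, SE 0.17, adjusted p = 0.0013), named after its value was seen. Scaled by totals alone Plin4 was at -0.22 and was not called. The largest other differences did not pass, at 1.94 (SE 0.74, adjusted p = 0.044) for Nat8l, which makes N-acetylaspartate, 1.82 (SE 0.64, adjusted p = 0.031) for the lipid droplet protein Pnpla3, and -1.80 (SE 0.79, adjusted p = 0.072) for the cytochrome Cyp2e1. Without replicate 3 of both groups, chosen after seeing the data, 5 rose and 1 fell, with 17.5% and 18.4% of all genes. Knockout replicate 3 was the lowest knockout in 18 of the 22, so this count partly follows from the choice. With the mean log2 CPM of the 9 genes as a covariate, also chosen after seeing the data, 1 rose and 4 fell, namely Adrb3, Cyp2e1, Hcar2 and Plin4, with 20.3% and 18.8% of all genes. This mean was itself higher in the knockouts (7.01 against 5.68), so the fit can assign part of a group difference to it.

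Of 10 regulators of adipocyte differentiation and lipid synthesis, 1 rose and 1 fell, beside 23.6% and 21.1% of all genes. Cebpb, a C/EBP factor of early adipogenesis that many other cells make, rose by 0.75 (SE 0.10, adjusted p = 0.00016), and Zfp423, a factor of preadipocyte commitment, fell by 0.99 (SE 0.16, adjusted p = 0.00053). Scaled by totals alone Zfp423 was at -0.32 and was not called. Pparg, the master regulator of adipocytes, had 8.64, 9.23, 4.15 and 14.2 CPM across the controls and 30.4, 23.1, 8.38 and 17.5 CPM across the knockouts, with a log2 fold change of 1.13 (SE 0.41, adjusted p = 0.036). It overlapped between the groups through knockout replicate 3, and passed the threshold without replicate 3 of both groups (1.09, adjusted p = 0.0059). Leaving these libraries out was chosen after seeing the data and removes the overlapping knockout, so the smaller p partly follows from that choice. Cebpa was at 0.97 (SE 0.54, adjusted p = 0.15).

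Fatty acid and triglyceride synthesis genes, the pathway that Scd1 belongs to, depended most on which libraries were included. Of 14 genes 1 rose and 2 fell, beside 23.6% and 21.1% of all genes, with a median log2 fold change of 1.83. Dgat2, which adds the last acyl chain of triglyceride, rose by 1.97 (SE 0.50, adjusted p = 0.0065), but missed the threshold in the same 5 of 8 fits with 1 library left out as Adig, with adjusted p-values up to 0.020. Dgat2, Gpam and Lpin1 are named because they are the genes called. Gpam and Lpin1, which act earlier in glycerolipid synthesis and are also made by muscle, fell by 1.06 (SE 0.10, adjusted p = 1.7e-05) and by 1.77 (SE 0.20, adjusted p = 4e-05). Scaled by totals alone Gpam was at -0.40 and was not called. Without replicate 3 of both groups, a choice made after seeing the data, 9 rose and 2 fell, beside 17.5% and 18.4% of all genes. Knockout replicate 3 was the lowest knockout in 12 of the 14 genes, so that count partly follows from the choice. With the mean of the 9 adipocyte genes as a covariate 4 rose (Acaca, Agpat2, Dgat2 and Elovl6) and 2 fell, beside 20.3% and 18.8% of all genes. That covariate was chosen after seeing the data and includes Scd1 of this same pathway. It averaged 5.68 across the controls and 7.01 across the knockouts, so the fit can assign part of a group difference to it. These calls are therefore a description.

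Fasn, the fatty acid synthase, had 704, 612, 28.7 and 1131 CPM across the controls and 4678, 3469, 634 and 1823 CPM across the knockouts. Knockout replicate 3 lay among the controls, and the log2 fold change of 2.10 (SE 0.87) had an adjusted p of 0.060 in all libraries and 0.0021 (1.98) without replicate 3 of both groups. The latter fit was chosen after seeing the data and removes the overlapping knockout. Per Adipoq count, Fasn was at 7.68, 10.4, 8.02 and 13.6 across the controls and 31.2, 40.4, 19.7 and 20.2 across the knockouts, without overlap. Elovl6, which lengthens fatty acids, behaved alike, with 0.172, 0.319, 0.360 and 0.566 counts per Adipoq count across the controls and 1.39, 1.12, 0.707 and 1.07 across the knockouts. These were the only 2 of the 14 synthesis genes with a higher ratio without overlap, and 2, Gpd1 and Lpin1, had a lower one. Of all genes with a mean of at least 1 CPM, 0.586% had a higher and 3.08% a lower ratio. As for Retn, these shares depend on the choice of Adipoq. Its low level in control replicate 3 raises the ratio there for genes that are not low with it. Fasn and Elovl6 (1.29 CPM) were both lowest of the controls in that library, so the low share of higher ratios is no measure of enrichment. Acly, ATP citrate lyase, had a log2 fold change of 2.47 (SE 0.72, adjusted p = 0.014), Elovl6 of 2.34 (SE 0.81, adjusted p = 0.029) and Thrsp, a lipogenic nuclear protein, of 2.06 (SE 0.59, adjusted p = 0.012). In contrast to Fasn, Scd1 in knockout replicate 2 was at 578 CPM while Fasn was at 3469 CPM.

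**Figure D4:**
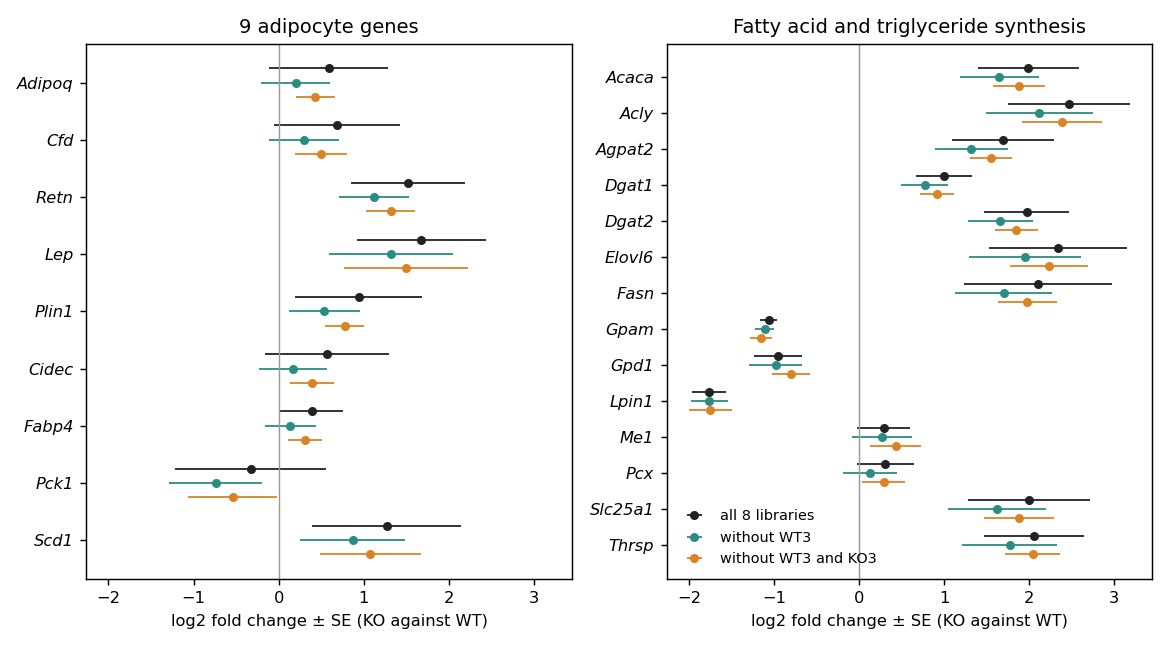
log2 fold change ± SE (KO against WT) of the 9 adipocyte genes and of 14 genes of fatty acid and triglyceride synthesis, in all 8 libraries, without control replicate 3 (WT3) and without replicate 3 of both groups (WT3 and KO3). The SE of Adipoq falls from 0.70 to 0.23 without both, and Gpam and Lpin1 lie below 0 in each.

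Among 8 genes of lipolysis and lipid uptake 1 rose and 0 fell, beside 23.6% and 21.1% of all genes. G0s2, which inhibits the triglyceride lipase ATGL, had 7.59, 8.12, 5.65 and 12.9 CPM across the controls and 89.0, 189, 55.4 and 96.3 CPM across the knockouts, a log2 fold change of 3.64 (SE 0.39, adjusted p = 2.9e-05). Unlike the 9 genes it separated the groups and was high in every knockout. Lipe, the hormone-sensitive lipase, was at 0.78 (SE 0.48, adjusted p = 0.19), Gpihbp1, the capillary anchor of lipoprotein lipase, at -0.57 (SE 0.18, adjusted p = 0.020) and Pnpla2, which encodes ATGL, at 0.34 (SE 0.21, adjusted p = 0.18).

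Paralogues of the 9 genes encode related proteins that other cells also use. Which cells made them here was not tested. Of 9 measured, 3 rose and 1 fell, beside 23.6% and 21.1% of all genes. Pck2, the mitochondrial isoform of Pck1, had 4.93, 6.55, 6.66 and 8.0 CPM across the controls and 78.1, 69.6, 87.1 and 85.1 CPM across the knockouts, with a log2 fold change of 3.60 (SE 0.14, adjusted p = 8.1e-08). Its knockout libraries lay within 1.25-fold of each other, where those of Pck1 ranged 5.79-fold. Fabp5, the epidermal fatty acid carrier, rose by 1.40 (SE 0.30, adjusted p = 0.0025). Scd3, a desaturase of skin, had 1, 1, 0 and 0 counts across the controls and 54, 54, 46 and 35 counts across the knockouts and was called higher (adjusted p = 1.1e-05), with a fitted fold that depends on the prior count. Scd3 is a close neighbour of Scd1 in sequence, and reads that fit both would have been dropped as multimapping. Plin5, the perilipin of oxidative muscle, fell by 1.33 (SE 0.30, adjusted p = 0.0037), with an adjusted p of 0.012 when knockout replicate 4 was left out. Scaled by totals alone Plin5 was at -0.66 and was not called. Fabp3, the muscle fatty acid carrier, was at -0.50 (SE 0.28, adjusted p = 0.15), Plin2 at 0.68 (SE 0.35, adjusted p = 0.12), Retnla at -1.01 (SE 0.37, adjusted p = 0.035) and Scd2 at -0.34 (SE 0.34, adjusted p = 0.41). Plin3 was at -0.11 (SE 0.14, adjusted p = 0.52), and at 0.56 with libraries scaled by their totals alone.

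Receptors of the adipokines were measured beside them. Adipor1, an adiponectin receptor abundant in muscle, had 371, 347, 383 and 353 CPM across the controls and 203, 208, 205 and 176 CPM across the knockouts, and fell by 0.88 (SE 0.08, adjusted p = 7.4e-06). Scaled by totals alone Adipor1 was at -0.21 and was not called. Cdh13, T-cadherin, which binds adiponectin on endothelium and muscle, fell by 0.49 (SE 0.12, adjusted p = 0.0050). It was at 0.19 with libraries scaled by their totals alone and passed in 2 of the 8 fits with 1 library left out, those without control replicate 1 or knockout replicate 2, with adjusted p-values up to 0.017. Adipor2 was at -0.46 (SE 0.13, adjusted p = 0.012) and the leptin receptor gene Lepr at -0.29 (SE 0.23, adjusted p = 0.29). Lepr had 2.02, 1.44, 3.01 and 1.89 CPM across the controls and 1.67, 1.65, 1.73 and 1.75 CPM across the knockouts, with control replicate 3 the highest library. Thus 2 of 4 fell and 0 rose, beside 21.1% and 23.6% of all genes.

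Markers of other adipose and muscle cells were set beside these levels. Of 7 brown and beige adipocyte markers 0 rose and 1 fell, Ppargc1a, which muscle fibres make, beside 23.6% and 21.1% of all genes. Ppargc1a was at -0.54, had an adjusted p of 0.024 without control replicate 3, and was at 0.13 with libraries scaled by their totals alone. Ucp1, the uncoupling protein of brown fat, had 66, 197, 0 and 545 counts across the controls and 230, 100, 2 and 102 counts across the knockouts. It had the largest within-group SD of all 12464 genes. Cidea, a droplet protein of brown fat, was at rank 3. It had 0.501 CPM in control replicate 3 and 2.85 CPM in knockout replicate 3, against 12.6 to 38.1 and 37.6 to 86.3 CPM in the other libraries. The 7 markers did not share this pattern as a set. Control replicate 3 was the lowest control in 3 of the 7 and the highest for Zic1, and knockout replicate 3 was the lowest knockout in 4. Of 7 markers of adipocyte progenitors and fibroblasts 0 rose and 3 fell, Cd34, Dcn and Ly6a, beside 23.6% and 21.1% of all genes. With libraries scaled by their totals alone these 3 had positive log2 fold changes of 0.04, 0.15 and 0.17, from -0.63, -0.52 and -0.51, so their direction rests on the scaling. The 7 markers had summed levels of 445 to 512 CPM across the controls, 496.7 CPM of it in control replicate 3, and 288 to 360.4 CPM across the knockouts. Dcn made up 358 CPM of the sum in control replicate 3, while Pi16 and Ly6a were lowest of the controls in control replicate 3. The summed level of 6 macrophage markers was 63.3 to 154 CPM across the controls and 122 to 219 CPM across the knockouts, and that of 5 red blood cell genes 41.1 to 102 CPM and 8.61 to 96.7 CPM, lowest in knockout replicate 2. The part of these cells in the levels of the 9 genes was not tested.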

How the data were processed

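QF RNA of 4 mice labelled knockout and 4 labelled control was measured as 1 poly(A)-selected, strand-specific library per mouse. The raw counts per gene were deposited by the authors, who used bcl2fastq 2.20.0.422, cutadapt and STAR 2.5.4b on GRCm38, counted read pairs on exons after removing duplicates, chimeras and pairs with multiple or poor alignments, and left out genes with fewer than 50 reads. The annotation release and the use of strand in counting are not given in the sources used here, so reads of overlapping genes may be shared. The deposited exon widths, in bases, were used for levels per kilobase. FPKM and the columns of the authors' own DESeq2 comparison (fold changes and p-values, DESeq2 1.32.0 per the labels) were not used. The labels name TRIzol for RNA extraction and the methods of the study a column kit.

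All 14012 genes were fitted with edgeR 4.0.16 (quasi-likelihood test, TMM scaling, group as the only term, Benjamini-Hochberg over all genes, adjusted p under 0.01) in R 4.3.3. CPM uses TMM-scaled library sizes, log2 CPM has a prior count of 2, and log2 fold changes are knockout minus control. The procedure was tested on simulated counts. The 9 genes, all gene lists and the tests were chosen with earlier results of these data known. Genes named are the 9, all measured paralogues and receptors, the 4 with the largest absolute log2 fold change in each of 4 other lists, and the 10 genes most like the 9. Any other gene is named because it was called or singled out after its values were seen, as Ppargc1a, Ucp1 and Cidea were. Of the listed symbols Trarg1 (its former symbol Tusc5 is measured), Cideb, Retnlb, Retnlg and Scd4 were not analysed here. The sequences were matched by Entrez Gene identifier. Alternatives covered scaling (RLE and totals), edgeR's low-count filter, DESeq2 1.42.0, the threshold, the prior count, a block for the replicate number, single libraries left out and, chosen after seeing the data, leaving out replicate 3 of both groups, the mean of the 9 genes as a covariate and the ratio to Adipoq.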

Additional observations from a re-analysis of the deposited data

Results flagged for a closer look

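Within each group of 4 libraries the gap between the lowest or highest log2 CPM and its neighbour was divided by the range of the group and compared with Dixon's 95% critical value for 4 values, for the 48 genes named by rule. Of 96 groups 16 were marked, 14 of them because control replicate 3 was the lowest control. The 9 adipocyte genes were chosen for their spread between these libraries and the 10 genes most like them for the same pattern, so their marks follow from that choice and are a description with no test. Chance marks about 5% of groups, and of the 58 groups of the other 29 genes 4 were marked. These share libraries and are not independent.

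As a description of the 9 adipocyte genes, the gap of control replicate 3 as a share of the range passed the value for Adipoq (0.863), Retn (0.840), Plin1 (0.861), Cidec (0.856) and Pck1 (0.884). For Cfd, Lep, Fabp4 and Scd1 it was the lowest control without reaching the critical value. Among further adipocyte and synthesis genes it was marked for Nat8l (0.862) and Fasn (0.833). Among the genes most like the 9 it was marked for Slc36a2 (0.931), Tmem45b (0.845), Tmem179 (0.849), Adrb3 (0.855), Arxes2 (0.879), Hcar1 (0.858) and Hcar2 (0.936), where Tmem179 had 0 counts and Hcar2 1 count in that library. The remaining 2 marks concern receptors, knockout replicate 4 as the lowest for Adipor1 (0.853) and knockout replicate 2 as the highest for Cdh13 (0.842).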

How the results depend on the processing

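The median log2 fold change of the 9 genes was between 0.22 and 1.34 over the scaling, filter, test, block and left-out-library alternatives, and each gene moved by less than its spread in them. With their own mean as a covariate their median was -0.1, where the covariate is made of the same genes. Counts of called genes moved more. Scaled by totals alone, 8498 of all genes were higher and 873 lower, and the lists had 3 higher and 0 lower (further adipocyte genes), 4 and 0 (regulators), 7 and 1 (synthesis), 4 higher (lipolysis and uptake), 5 and 0 (paralogues) and 0 lower (receptors), with Plin3 at 0.56 and Cdh13 at 0.19. Without replicate 3 of both groups, 5 further adipocyte genes, 2 regulators and 9 synthesis genes were higher and 1 receptor lower. With the mean of the 9 genes as a covariate, 4 synthesis genes were higher, 4 further adipocyte genes, 1 lipolysis gene and 2 paralogues lower, and Acp5 was at -0.58. DESeq2 called 2 further adipocyte and 3 synthesis genes higher, and 2 lipolysis genes and 2 paralogues lower. RLE scaling called 1 lipolysis gene lower. At an adjusted p under 0.05, 4 further adipocyte genes, 2 regulators and 8 synthesis genes were higher, and 2 lipolysis genes and 2 paralogues lower. Fits with 1 library left out gave 0 to 3 higher and 1 to 2 lower further adipocyte genes, 1 to 2 higher regulators, 0 to 4 higher synthesis genes, 0 to 1 lower lipolysis genes, 0 to 1 lower paralogues and 1 to 2 lower receptors. Adig and Dgat2 both lost their calls in the same 5 of these 8 fits, those lacking control replicates 1 and 2 and knockout replicates 1, 2 and 4 in turn. Over all alternatives, 3 of 585 values of named genes outside the 9 changed sign with a call, 52 gained and 17 lost a call. The cause was not tested.

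The labels number the libraries 1 to 4 in both groups without saying that a number is shared by litter or day. Deviations from the group means correlated at 0.165, 0.0146, 0.486 and 0.164 between libraries of the same number, and replicate 2 did not correlate best with its own number while the other 3 did, so the numbers were not taken as pairs. With the number as a block, 5 further adipocyte genes, 3 regulators, 9 synthesis genes and 2 lipolysis genes were higher and 1 lipolysis gene lower.

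Depth limits Lep, with 3 to 19 counts in 3 of the controls, and the ratios of control replicate 3, which rest on 50 Adipoq counts. The control range of 8 of the 9 genes, Lep excepted, rests on 1 library, and the 4 libraries per group leave the wide SEs given.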
